A study of Oikopleura dioica with 12 samples.

Results

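The genes described here are short, are split into several coding exons and lie outside operons in the marine chordate Oikopleura dioica, a tunicate with a compact genome. They were chosen from the gene models alone: at least 2 coding exons, a summed coding sequence of at most 450 bp, and no neighbour on the same scaffold and strand within 60 bp, since close neighbours on a strand were taken as operons. This rule found 2110 of 18020 gene models, of which 1730 were in the count table. The 1201 members with at least 100 reads over all libraries made up 8.24% of the 14574 genes tested, while 529 members fell below that limit and 52 of these had no read at all.

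The study exposed whole day-6 females to 1 μM Torin 1, an inhibitor of the mTOR kinase, or to DMSO as the vehicle control, for 1.5 h with normal food. It asked how inhibition of mTOR alters translation. Ribosome-protected fragments (RPFs) and total RNA were sequenced from 3 biological replicates per treatment, giving 12 libraries in 4 groups: RPF in Torin 1, RPF in DMSO, RNA in Torin 1 and RNA in DMSO. Each collection pooled many animals, the RNA came from a subset of them, and no cycloheximide was used. In such whole-animal samples, fewer cells of a type and less RNA per cell cannot be told apart.

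In O. dioica many neighbouring genes are transcribed together as operons, and the shared transcript is cut into separate mRNAs by trans-splicing, which adds a short spliced leader to the 5′ end of each. Genes outside operons have their own transcript and may or may not receive the leader. RPFs are the stretches of mRNA that ribosomes shield from nuclease, so that the RPF level of a gene over its RNA level is a measure of how densely the mRNA is occupied by ribosomes. mTOR is the kinase that couples translation to nutrients, and the mRNAs most sensitive to its inhibition in mammals, the TOP mRNAs, encode ribosomal proteins and translation factors.

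Levels are read counts scaled to a library total of 1000000 (RPM), and a gene was called where the adjusted p of the edgeR test over all tested genes was below 0.05. The RNA libraries held 7520819 to 27462750 counts. The RPF libraries held 91549 to 718559 counts in Torin 1. In DMSO, replicates 2 and 3 held 874562 and 334447 counts, against 22889270 in the library labelled RPF DMSO replicate 1. A count of 0 therefore allowed up to 32.8 RPM in RPF Torin 1 replicate 3 but only 0.109 RPM in RNA DMSO replicate 3 (3 counts per library, counting error only).

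Several libraries stood apart in the members. Over the 1201 members, the library labelled RPF DMSO replicate 1 had a Spearman correlation of 0.94 with RNA Torin 1 replicate 3, against 0.57 and 0.61 with the other DMSO RPF libraries. The RNA libraries of replicate 2, which are labelled Torin 1 and DMSO, correlated at 0.98, and their counts differed by about the sampling noise (chi-square per degree of freedom 1.06, against 14.5 to 421 for all other RNA pairs). Results that rest on these libraries are given with and without them. Of 37 tested genes with axoneme or cilia terms in their descriptions, none was a member. The terms do not cover every related description, such as that of the tctex1 domain member given below. The summed level of the 37 was 2328, 453 and 22997 RPM in Torin 1 RNA, against 459, 465 and 129 RPM in DMSO RNA. In RPF libraries it was 7665, 23443 and 7504 RPM in Torin 1, against 30187, 2146 and 5834 RPM in DMSO. All 37 had reads in every RNA library, and the highest RNA sum fell in the same library in which many members peaked. Of 23 genes with muscle terms, 1 was a member, and their summed RNA was 5212, 746 and 1904 RPM in Torin 1, against 1120, 732 and 83.2 RPM in DMSO. The part of such tissues in the results was not tested.

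The members were small gene models, and most were marked as complete in the annotation. Of the 1201, 563 had 2 coding exons, 407 had 3, 178 had 4 and 53 had 5 or more, up to 7. The coding length ran from 39 to 450 bp with a median of 339 bp, and was a multiple of 3 in every member. The median intron of a member was 60 bp long, against 51 bp in the 7688 longer genes of several coding exons outside operons, and 4 members had an intron under 20 bp. Untranslated rows were annotated for 987 members, and 95.3% were marked as complete. The members lay on 334 scaffolds. Few could be named: 5 were on the list of ribosomal proteins among the TOP mRNA orthologs of the study, and 36 more had a description in the part of its gene table at hand.

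The primer pairs that the study used for qPCR of 2 members are shown because they identify the ribosomal protein transcripts that are described first. They are written 5′ to 3′ with no part marked.
RPL27A forward primer: ctctggtctctcatccccga
RPL27A reverse primer: ggcagccttgatcttgtcct
RPS12 forward primer: caggaagtcctcaagcaggg
RPS12 reverse primer: tagttgccttcgtcgcagtt

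Ribosomal proteins were the only members among 88 listed orthologs of TOP mRNAs or S6 kinases. They were RPS9, RPS12 and RPS15 of the small subunit (RPS15 is listed under a pseudogene symbol of its human ortholog) and RPL27A and RPL32 of the large subunit, structural parts of the cytosolic ribosome. Fewer RPFs were counted in Torin 1 than in DMSO for 4 of the 5 with no overlap between the groups, while their RNA overlapped. The list is the one the study set up by orthology. Such a gap between the groups was seen in 52 members (4.33%) and in 8.18% of all genes tested, so that it was not particular to the short genes.

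RPS9 (GSOIDG00001641001, scaffold 1240, 1294 to 2042, minus strand, 3 coding exons) had 177, 99.5 and 229 RPM of RPFs in Torin 1, against 623, 305 and 365 RPM in DMSO. Its RNA was 820, 1069 and 542 RPM in Torin 1, against 877, 1086 and 845 RPM in DMSO. Every Torin 1 value of RPFs was below every DMSO value, and the fitted difference was -1.24 ± 0.70 on the log2 scale (SE, adjusted p = 0.929). RPL27A (GSOIDG00007917001, scaffold 23, 119625 to 121024, plus strand, 2 coding exons) had 107, 82.4 and 175 RPM of RPFs in Torin 1, against 481, 246 and 374 RPM in DMSO. Its RNA was 660, 831 and 353 RPM in Torin 1, against 708, 839 and 663 RPM in DMSO. The RPF groups were again separate, at a log2 fold change of -1.50 ± 0.68 (adjusted p = 0.910), and the RNA groups were not.

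RPS12 (GSOIDG00000241001, scaffold 1, 865274 to 865879, plus strand, 3 coding exons) had the largest RPF difference of the ribosomal members. It had 51.5, 12.0 and 65.5 RPM of RPFs in Torin 1, against 272, 133 and 185 RPM in DMSO, for a log2 fold change of -2.13 ± 0.72 (adjusted p = 0.910). Its RPF to RNA ratio was 0.157, 0.0256 and 0.337 in Torin 1, against 0.702, 0.287 and 0.514 in DMSO, a change of efficiency of -1.67 ± 0.87 on the log2 scale (adjusted p = 0.735). RPS15 (GSOIDG00016058001, scaffold 7, 1051397 to 1052443, plus strand, 3 coding exons) had 87.7, 30.9 and 65.5 RPM of RPFs in Torin 1, against 194, 170 and 245 RPM in DMSO, for a log2 fold change of -1.57 ± 0.67 (adjusted p = 0.910). RPL32 (GSOIDG00006994001, scaffold 229, 37621 to 38604, plus strand, 3 coding exons) was near the detection limit, with 1.39, 1.72 and 0 RPM of RPFs in Torin 1, against 2.40, 0 and 5.98 RPM in DMSO. Its groups overlapped, so that nothing can be read from it. None of the 5 passed the adjusted threshold in any comparison between the treatments. Without the library labelled RPF DMSO replicate 1, the RPF log2 fold changes were -0.92 for RPS9, -1.30 for RPL27A, -1.89 for RPS12 and -1.61 for RPS15, with adjusted p from 0.153 for RPS12 to 0.692 for RPS9. The median RPF change of the 5 ribosomal members was -1.50, beside -0.24 over all genes.

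**Figure D1:**
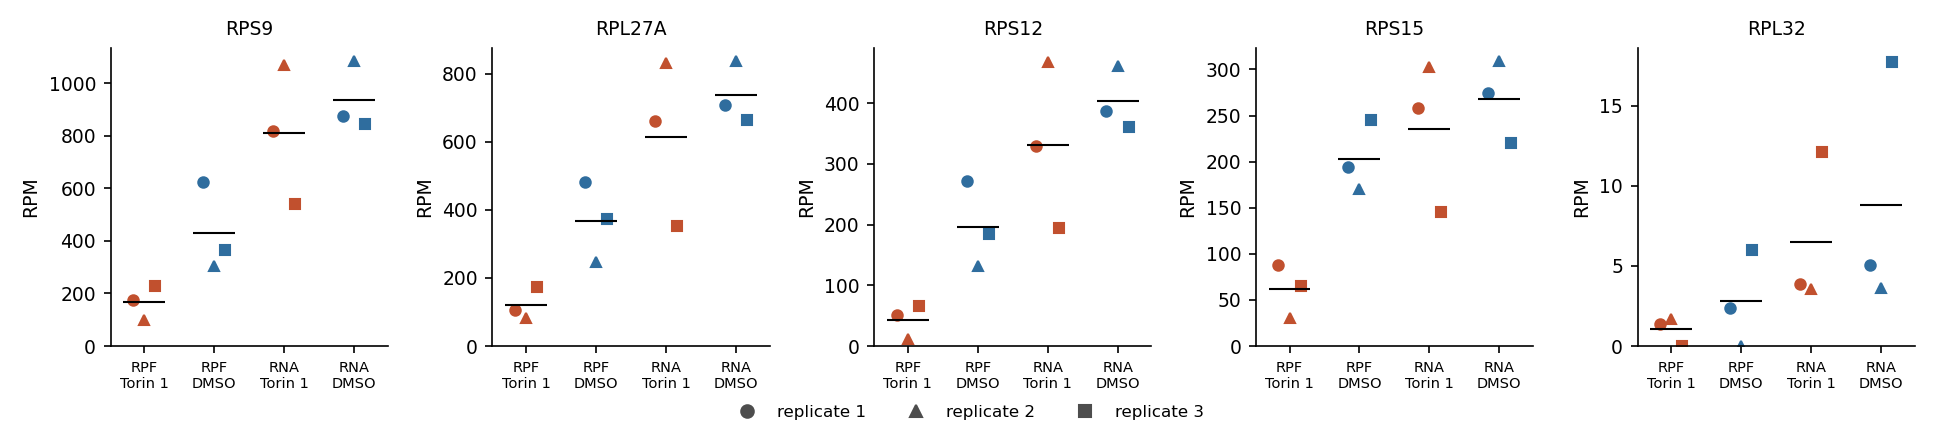
Level in RPM (vertical axis, starting at 0, scaled per panel) of the 5 ribosomal protein members in RPF and RNA libraries of Torin 1 (orange) and DMSO (blue), with replicate numbers as symbols and group means as lines. RPF points of Torin 1 lie below all DMSO points for RPS9, RPL27A, RPS12 and RPS15, while the RNA groups overlap. RPL32 has at most 5.98 RPM of RPFs.

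The members took a similar share of the RPFs in both treatments. They held 3.65% ± 0.89 of the RPF counts in Torin 1 and 3.78% ± 0.06 in DMSO, and 3.60% ± 0.68 of the RNA counts in Torin 1 and 2.74% ± 0.16 in DMSO (SD, n = 3 each). Most members were low: the median member had 835 reads over all libraries. In RPF libraries many were not seen at all, with 230, 278 and 701 members at 0 in Torin 1 replicates 1, 2 and 3, against 289 and 376 in DMSO replicates 2 and 3. No member was at 0 in the library labelled RPF DMSO replicate 1 or in RNA Torin 1 replicate 3.

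**Figure D2:**
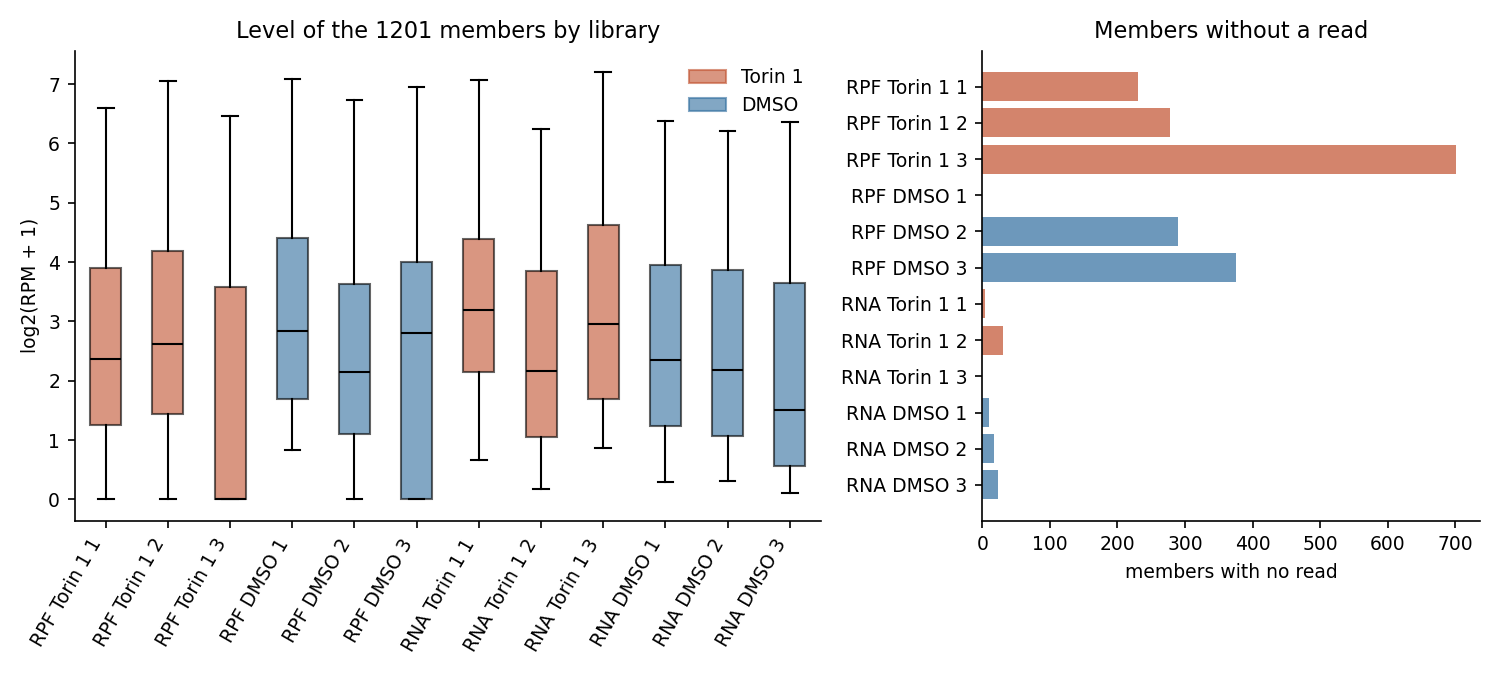
Left, log2(RPM + 1) of the 1201 members in each library (box, quartiles and median; whiskers, 5th to 95th percentile), RPF before RNA and Torin 1 (orange) before DMSO (blue). Right, the number of members with no read, which reaches 701 in RPF Torin 1 replicate 3 and is 0 in the library labelled RPF DMSO replicate 1 and in RNA Torin 1 replicate 3.

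Per kilobase of coding sequence, the median member had 15.1 RPM of RPFs in Torin 1 and 19.2 in DMSO, and 26.4 RPM of RNA in Torin 1 and 10.7 in DMSO. The medians in longer genes of several coding exons outside operons were 9.58 and 10.8 RPM of RPFs in Torin 1 and DMSO, and 16.7 and 6.89 RPM of RNA. Short genes of several coding exons in operons had more RNA, with a median of 50.4 RPM per kilobase in Torin 1 and 52.2 in DMSO. The members thus had higher medians per kilobase than longer genes outside operons in all 4 groups, and lower ones than short genes in operons. A fixed limit of 100 reads asks for a higher level per kilobase of a short gene than of a long one. It was passed by 69.4% of members in the count table and by 85.4% of the longer class. The contrast with longer genes can therefore arise in part from the limit. Untranslated rows were not in the length.

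The most abundant members per kilobase of coding sequence were not named in the files. By RPFs per kilobase in DMSO, GSOIDG00003538001 (scaffold 14, 247858 to 248638, plus strand, 4 coding exons, 348 bp) came first. It had 2512, 3754 and 1759 RPM of RPFs in Torin 1, against 441, 2761 and 3522 RPM in DMSO, and 1555, 700 and 544 RPM of RNA in Torin 1, against 497, 697 and 154 RPM in DMSO. The lowest DMSO value of RPFs was that of the library labelled replicate 1, and the treatments overlapped in both assays. GSOIDG00001705001 (scaffold 102, 49391 to 50108, plus strand, 2 coding exons, 405 bp) came second, with 2107, 3282 and 1431 RPM of RPFs in Torin 1, against 1212, 2695 and 2942 RPM in DMSO. Its RNA ranged from 621 to 4711 RPM in Torin 1, against 163 to 1362 RPM in DMSO.

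By RNA per kilobase, GSOIDG00004482001 (scaffold 16, 545617 to 545857, minus strand, 141 bp) and GSOIDG00011725001 (scaffold 4, 1424786 to 1427996, plus strand, 264 bp) came first. GSOIDG00004482001 had 4050 ± 568 RPM of RNA per kilobase in DMSO (SD, n = 3), but 1172 ± 490 RPM of RPFs per kilobase. Its RNA was 78.1, 661 and 184 RPM in Torin 1, against 544, 661 and 508 RPM in DMSO, where the equal values of 661 are those of the replicate 2 libraries. GSOIDG00011725001 had 3251 ± 865 RPM of RNA per kilobase in DMSO and 1854 ± 853 RPM of RPFs. With the untranslated rows in the length, its RNA level would be 866 RPM per kilobase, and that of GSOIDG00004482001 3190. The levels thus depend on which length is used. The order within the pair does not, but their rank among all members was not computed with that length. RPS9 had 3088 RPM of DMSO RNA per kilobase of coding sequence. By mean RPM it exceeded both, at 936 RPM, against 571 for GSOIDG00004482001 and 858 for GSOIDG00011725001.

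RPFs were next compared with RNA within a treatment, which shows how many RPFs a gene had for its RNA relative to other genes. In DMSO, 146 members were called with more RPFs than their RNA share (12.2%) and 4 with fewer. Over all genes, 6.79% were called higher and 1.21% lower. The median log2 ratio of members was 0.66, beside 0.17 over all genes, 0.63 in longer genes of several coding exons outside operons, 0.48 in short genes of 1 coding exon outside operons and -0.14 in short genes of several coding exons in operons. The median of the short genes was therefore near that of longer genes outside operons, and the class in operons was the one that stood lower.

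These calls rested on individual libraries. Without the library labelled RPF DMSO replicate 1, the median log2 ratio of members was 0.14, beside -0.25 over all genes, 0.16 in longer genes outside operons and -0.56 in short genes in operons. In that fit 106 members were called higher and 49 lower, against 6.91% and 12.9% of all genes, and 62 of the 146 were called in both fits. Without RNA DMSO replicate 3 no member was called (0 higher and 0 lower), and without RPF DMSO replicate 3 only 10 higher and 0 lower. The shares over all genes in these fits are not given here, so that the loss cannot be read as particular to the members. Of the 146, 129 had more RNA in Torin 1 replicate 3 than in any other RNA library, as had 241 of all 1201 members, and 82 had at most 1 RPM in every DMSO RNA library. The part of these libraries in the calls was not tested beyond leaving them out. The read limit was summed over all libraries, including RNA Torin 1 replicate 3 and the library labelled RPF DMSO replicate 1. A gene with few reads elsewhere can thus pass it, and the latter library then also enters the DMSO comparison. GSOIDG00007171001, called higher with all libraries, had 1497 and 1775 counts in this pair and at most 13 in any other library. How many of the 146 passed in this way was not counted.

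A count without a model was therefore made over the 5 RPF libraries other than the one labelled DMSO replicate 1 and the 5 RNA libraries other than Torin 1 replicate 3. The read limit still summed the libraries left out. Every RPF level was above every RNA level in 63 members (5.25%), against 3.18% of all genes. A single read is already 10.9 RPM in RPF Torin 1 replicate 3 and 2.99 RPM in RPF DMSO replicate 3. A few reads can thus place a gene of low RNA here, such as GSOIDG00016981001, with RPFs of 1.14 to 10.9 RPM. Every RPF level was below every RNA level in 156 members (12.99%), against 20.1% of all genes, although zero counts in the shallow RPF libraries can place a gene here. RPS9, RPS12 and RPL27A were 3 of the 156.

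In 4 members the lowest RPF level was at least 10 times the highest RNA level over these libraries (0.333%), against 34 of all genes (0.233%), so that it was not particular to the members. They were singled out after their values were seen. GSOIDG00006500001 (scaffold 20, 154191 to 154661, plus strand, 2 coding exons, 420 bp) had 793, 2019 and 1180 RPM of RPFs in Torin 1, against 248, 208 and 831 RPM in DMSO. Its RNA was 3.77, 2.39 and 189 RPM in Torin 1, against 2.47, 1.66 and 0.947 RPM in DMSO. RNA was thus below 4 RPM in every library but Torin 1 replicate 3, beside RPFs of at least 208 RPM in all libraries, and the log2 ratio in DMSO was 8.24 ± 0.82 (adjusted p = 0.00269).

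GSOIDG00008377001 (scaffold 26, 215514 to 216255, plus strand, 4 coding exons, 408 bp) had the same form, with 330, 1608 and 1551 RPM of RPFs in Torin 1, against 799, 131 and 748 RPM in DMSO. Its RNA was 10.5, 5.45 and 743 RPM in Torin 1, against 1.97, 4.81 and 1.02 RPM in DMSO, for a log2 ratio in DMSO of 8.01 ± 0.96 (adjusted p = 0.00275). GSOIDG00002085001 (scaffold 119, 56353 to 56726, plus strand, 2 coding exons, 339 bp) had 174, 769 and 426 RPM of RPFs in Torin 1, against 338, 80.0 and 490 RPM in DMSO. Its RNA stayed at 0.146 to 4.44 RPM outside Torin 1 replicate 3, where it was 195 RPM. GSOIDG00013071001 (scaffold 50, 52904 to 53450, minus strand, 3 coding exons, 324 bp) was less abundant, with 22.3, 63.5 and 32.8 RPM of RPFs in Torin 1, against 73.6, 3.43 and 23.9 RPM in DMSO. Its RNA did not exceed 0.266 RPM except in Torin 1 replicate 3, at 60.1 RPM. Its counts were 1612 there and 1684 in the library labelled RPF DMSO replicate 1. They were at most 37 in any other library, so that it passed the read limit only through this pair. The log2 ratios in DMSO without the library labelled RPF DMSO replicate 1 were 8.41 for GSOIDG00006500001, 7.55 for GSOIDG00008377001, 7.29 for GSOIDG00002085001 and 7.84 for GSOIDG00013071001, all called, with adjusted p from 4.1e-04 to 0.00383. All 4 lost the call without RNA DMSO replicate 3, as did every other member, at an adjusted p of 0.0977 each. GSOIDG00002085001 lost it also without RPF DMSO replicate 3 (0.0502).

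GSOIDG00013071001 also had the largest log2 ratio in DMSO among the called members that met the rule for named genes, at 9.42 ± 1.25 (adjusted p = 0.00386), followed by GSOIDG00010216001 (scaffold 31, 170908 to 171438, minus strand, 3 coding exons, 390 bp) at 9.31 ± 1.13 (adjusted p = 0.00287). GSOIDG00010216001 had 29.2, 106 and 65.5 RPM of RPFs in Torin 1, against 119, 9.15 and 26.9 RPM in DMSO. Its RNA was 1.89, 0.266 and 87.2 RPM in Torin 1, against 0.0562, 0.158 and 0.0728 RPM in DMSO. DMSO RNA of this member was at a few reads per library, so that the size of the ratio is poorly fixed.

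The 4 members called with fewer RPFs than RNA in DMSO had 3 or 4 coding exons and 73.4 to 150 RPM of RNA per kilobase in DMSO, above the upper quartile of 42.7 over the members. GSOIDG00003981001 (scaffold 155, 26486 to 27089, plus strand, 450 bp) had 17.4, 6.86 and 8.97 RPM of RPFs in DMSO, against 62.9, 58.4 and 81.3 RPM of RNA, a log2 ratio of -2.26 ± 0.54 (adjusted p = 0.028). GSOIDG00015180001 (scaffold 6, 1175836 to 1176516, plus strand, 273 bp) had 6.64, 3.43 and 0 RPM of RPFs in DMSO, against 36.0, 25.2 and 58.8 RPM of RNA, a log2 ratio of -2.92 ± 0.74 (adjusted p = 0.0361). The RPF and RNA levels did not overlap in either gene. GSOIDG00003307001 (scaffold 13, 608864 to 609632, plus strand, 432 bp) had a log2 ratio of -2.57 ± 0.64, and GSOIDG00002744001 (scaffold 121, 60849 to 61370, plus strand, 384 bp) of -2.34 ± 0.63. All 4 were also called without the library labelled RPF DMSO replicate 1, with adjusted p from 0.00522 to 0.0245. None was called without RNA DMSO replicate 3 or RPF DMSO replicate 3, fits in which no member was called lower. Outside the first replicate their RPFs in DMSO rest on 0 to 6 counts per library.

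**Figure D3:**
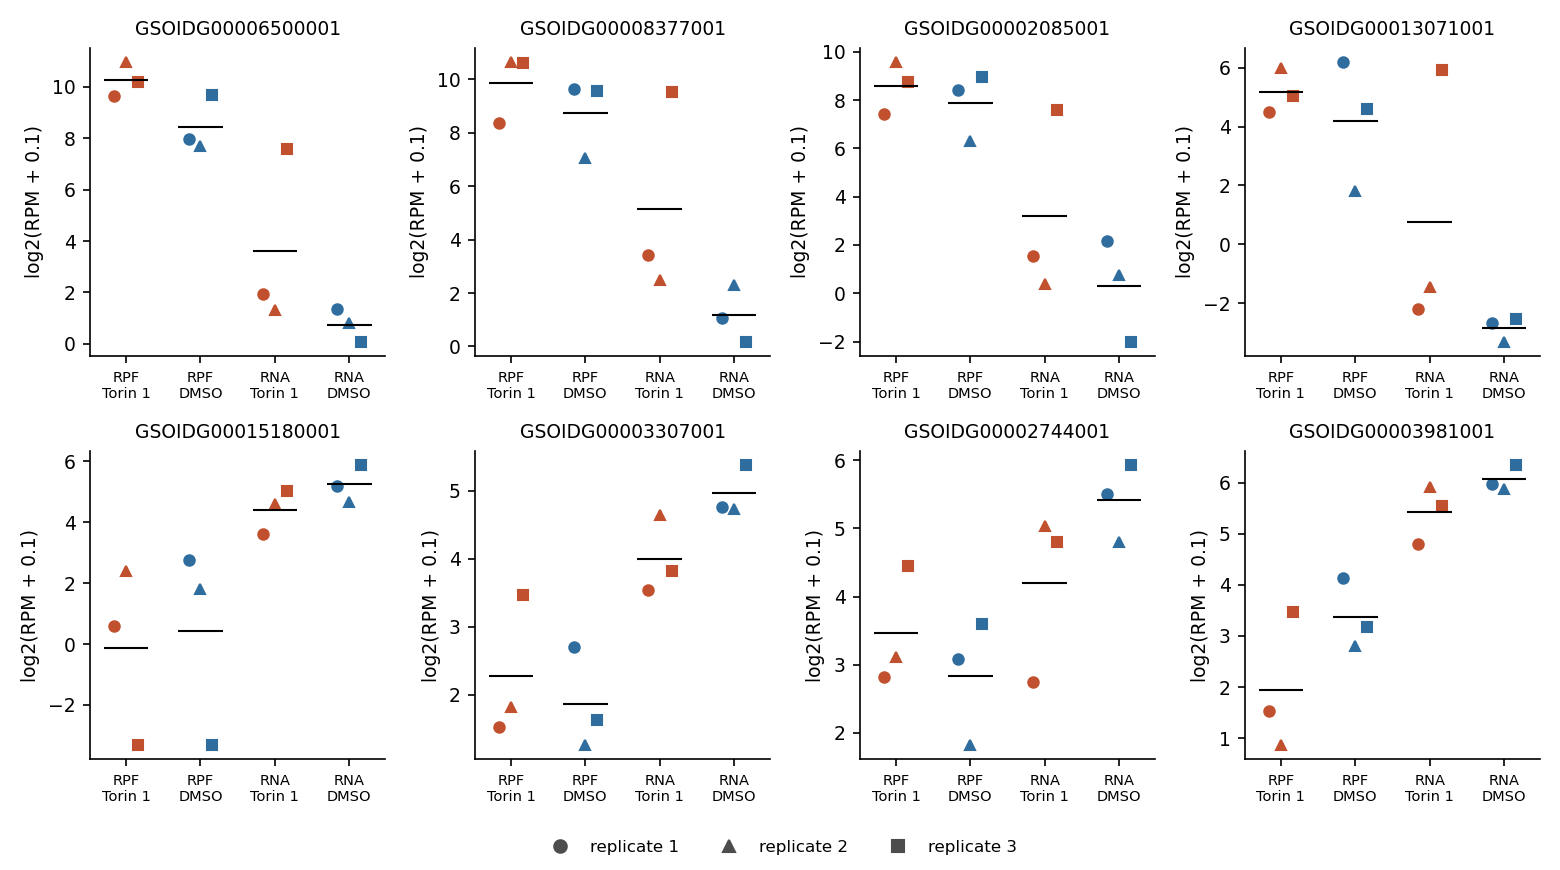
log2(RPM + 0.1) in RPF and RNA libraries of Torin 1 (orange) and DMSO (blue), with replicate numbers as symbols and means of the log values as lines. Top, the 4 members whose RPFs exceeded RNA by at least 10 times over the libraries used: RNA is low except in Torin 1 replicate 3 (square). Bottom, the 4 members called with fewer RPFs than RNA in DMSO: RPF points of DMSO lie below the RNA points of DMSO.

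In Torin 1, no member was called in the same comparison (0 of all genes, 0%). At an unadjusted p below 0.05, 48 members were higher and 61 lower (4.00% and 5.08%), against 2.86% and 9.21% of all genes. RPFs and RNA of a replicate share their animals, and with this pairing as a replicate block 17 members were called higher and 3 lower, against 0.686% and 0.0412% of all genes. Of those 17, 16 were also called higher in DMSO. Without RNA Torin 1 replicate 3, 70 members were called higher and 8 lower, against 3.40% and 0.446% of all genes. The fitted median of members was -0.26, beside -0.42 over all genes, but 114 members had no RPF count in any Torin 1 library. With these set at the limit that 3 counts over the group allow, the median was -0.05, beside -0.32 over all genes.

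GSOIDG00016101001 (scaffold 7, 1217030 to 1217772, plus strand, 4 coding exons, 435 bp) had the lowest p toward more RPFs than RNA in Torin 1 of the members that met the rule for named genes. It had 22.3, 30.9 and 10.9 RPM of RPFs, against 4.60, 1.06 and 1.49 RPM of RNA, a log2 ratio of 3.81 ± 0.83 (adjusted p = 0.361). With the replicate block its adjusted p was 0.0519, which misses the threshold. Larger ratios were fitted for other members, such as 4.72 ± 1.47 for GSOIDG00006500001. GSOIDG00001469001 (scaffold 1085, 134 to 367, minus strand, 2 coding exons, 213 bp) had 61.2, 75.5 and 32.8 RPM of RPFs in Torin 1, against 12.4, 10.8 and 8.76 RPM of RNA, a log2 ratio of 2.92 ± 0.64 (adjusted p = 0.361). RPFs were above RNA in every Torin 1 library for both.

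At the other end, GSOIDG00015362001 (scaffold 64, 1947 to 2796, plus strand, 2 coding exons, 183 bp) had 4.18, 1.72 and 0 RPM of RPFs in Torin 1, against 457, 38.6 and 44.8 RPM of RNA. The log2 ratio was -5.39 ± 1.17 (adjusted p = 0.361), and -5.46 with the replicate block (adjusted p = 0.00438). Few RPFs were also seen in DMSO, with 1.14 and 2.99 RPM in replicates 2 and 3, against 56.6 RPM in the library labelled replicate 1. GSOIDG00008790001 (scaffold 3, 96459 to 96895, plus strand, 2 coding exons, 138 bp) had 2.78, 0 and 0 RPM of RPFs in Torin 1, against 127, 41.9 and 29.9 RPM of RNA. Its log2 ratio was -5.01 ± 1.10 (adjusted p = 0.361), and -5.48 with the replicate block (adjusted p = 0.0109). The next gene model on the scaffold, GSOIDG00008791001 (98689 to 99123, minus strand), is also a member of 2 coding exons and 138 bp, and was singled out for its position. It had 1.39, 1.72 and 10.9 RPM of RPFs, against 178, 34.2 and 44.4 RPM of RNA in Torin 1 (-4.53 ± 1.04, adjusted p = 0.361, and 0.0331 with the replicate block). Whether this pair are copies that share reads could not be checked without the genome sequence.

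**Figure D4:**
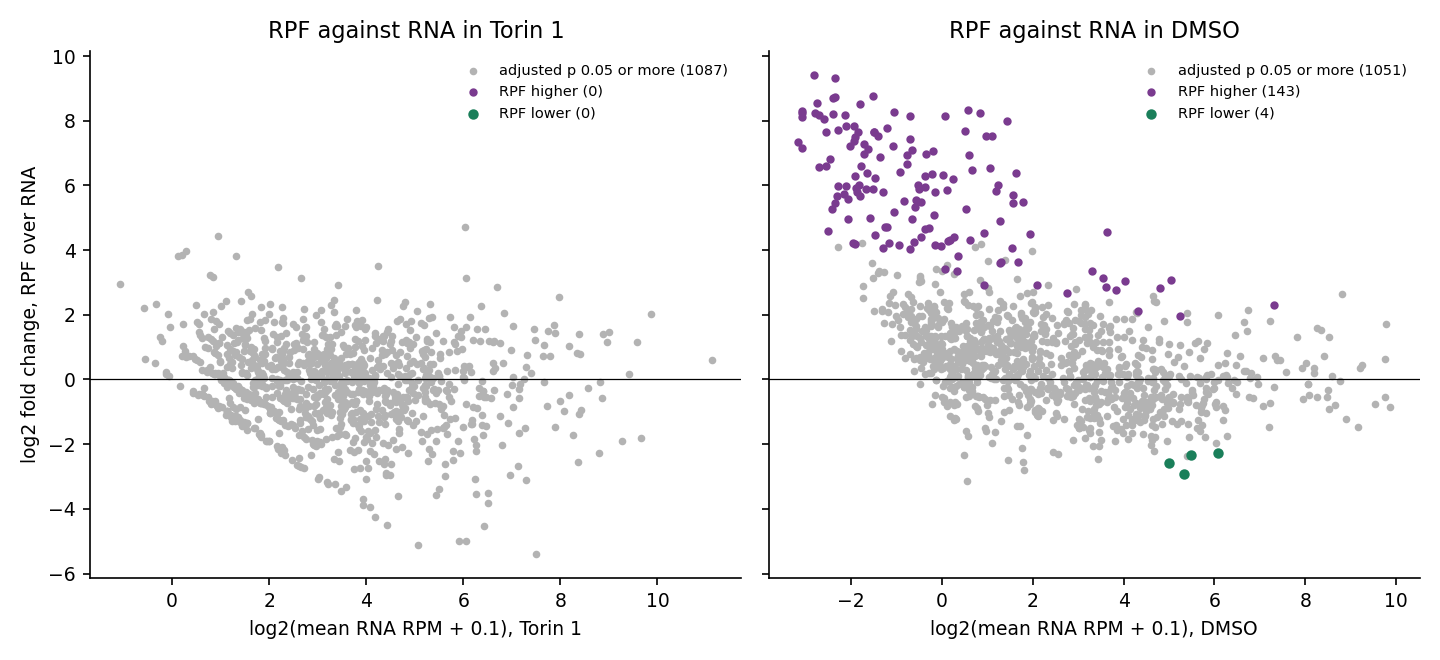
log2 fold change of RPF over RNA (vertical axis) against log2(mean RNA RPM + 0.1) of the members (horizontal axis) in Torin 1 (left) and DMSO (right), with members that had no count in a whole group left out (114 in Torin 1, 3 in DMSO). Purple (higher) and green (lower) points passed the adjusted threshold, none of them in Torin 1. In DMSO these are the 4 lower members and the 146 higher ones except the 3 left out. The members called higher in DMSO sit mostly at low RNA levels, 82 of them at or below 1 RPM in each DMSO RNA library.

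The level of RNA was compared between the treatments. No member was called (0% of all genes). At an unadjusted p below 0.05, 197 members (16.4%) were higher in Torin 1 and 0 lower, against 10.1% and 0.0274% of all genes. DESeq2 called 7 members higher, against 0.556% of all genes. The median log2 fold change of members was 1.05, beside 0.22 over all genes, 0.92 in the longer genes outside operons and -0.17 in short genes in operons. Libraries contributed unequally: the highest RNA level of a member was in Torin 1 replicate 1 for 603 members and in Torin 1 replicate 3 for 241, against 50 in Torin 1 replicate 2. Without Torin 1 replicate 1, the median of members exceeded the median over all genes by 0.28, and with every library included by 0.83. It was 1.20 without the 4 libraries in doubt, which are those of RNA replicate 2, the library labelled RPF DMSO replicate 1 and RNA Torin 1 replicate 3. That fit leaves replicate 1 as the only Torin 1 RNA library, so that the value rests on a single library.

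GSOIDG00010216001, described above, was among the 5 members of lowest p toward higher RNA, with a log2 fold change of 8.34 ± 2.33 (adjusted p = 0.452) that came from its 87.2 RPM in Torin 1 replicate 3. GSOIDG00005968001 (scaffold 2, 1090286 to 1091615, minus strand, 2 coding exons, 324 bp) had 18.3, 1.73 and 28.9 RPM of RNA in Torin 1, against 1.80, 1.10 and 0.401 RPM in DMSO, a log2 fold change of 3.98 ± 1.10 (adjusted p = 0.452). Torin 1 replicate 2 of this member overlapped with DMSO. Toward lower RNA, GSOIDG00000205001 (scaffold 1, 711340 to 713055, plus strand, 4 coding exons, 405 bp) had 28.7, 45.3 and 33.6 RPM in Torin 1, against 65.6, 47.9 and 77.3 RPM in DMSO (-0.81 ± 0.37, adjusted p = 0.452). GSOIDG00010790001 (scaffold 36, 48542 to 49245, minus strand, 2 coding exons, 276 bp) had 1.18, 2.66 and 2.61 RPM, against 8.21, 4.10 and 4.99 RPM in DMSO (-1.35 ± 0.60, adjusted p = 0.452). The groups were separate in both, but their replicate 2 libraries are those that could not be told apart.

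For RPFs, no member was called between Torin 1 and DMSO (0% of all genes). At an unadjusted p below 0.05, 24 members (2.00%) were higher and 51 (4.25%) lower, against 1.30% and 4.12% of all genes. Without the library labelled RPF DMSO replicate 1, 6 members were called higher and 0 lower, against 0.295% of all genes called higher. The fitted median of members was -0.16, beside -0.24 over all genes. With the 114 members that had no Torin 1 count set at their limit it was -0.00, beside -0.18. DESeq2 called 0 members.

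GSOIDG00008774001 (scaffold 3, 32182 to 32734, minus strand, 2 coding exons, 447 bp) had the lowest p of the members with more RPFs in Torin 1, at 143, 184 and 186 RPM, against 36.8, 24.0 and 41.9 RPM in DMSO. The RPF groups were far apart, with a log2 fold change of 2.44 ± 0.63 (adjusted p = 0.910). Its RNA was 190, 17.0 and 53.9 RPM in Torin 1, against 25.4, 19.3 and 9.47 RPM in DMSO, so that the RNA groups overlapped. GSOIDG00001469001 had 61.2, 75.5 and 32.8 RPM of RPFs in Torin 1, against 8.34, 30.9 and 15.0 RPM in DMSO (1.81 ± 0.67, adjusted p = 0.910). Its RNA hardly differed, at 12.4, 10.8 and 8.76 RPM in Torin 1, against 5.85, 12.7 and 7.72 RPM in DMSO.

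Among members with fewer RPFs in Torin 1, GSOIDG00013763001 (scaffold 516, 1 to 829, plus strand, 2 coding exons, 183 bp) was separate in both assays. It had 13.9, 10.3 and 10.9 RPM of RPFs in Torin 1, against 56.1, 88.0 and 47.8 RPM in DMSO (-2.32 ± 0.68, adjusted p = 0.910). Its RNA was 73.4, 89.9 and 66.1 RPM in Torin 1, against 97.0, 100.05 and 151 RPM in DMSO. RPF counts in Torin 1 were 10, 6 and 1. GSOIDG00007171001 (scaffold 247, 10456 to 10739, plus strand, 2 coding exons, 225 bp) had no RPF count in any Torin 1 library, against 77.5, 2.29 and 2.99 RPM in DMSO. Pooled over the group it was at least 34.3-fold lower in Torin 1 (against a floor of 3 counts over the group), but 1775 of its 1778 DMSO counts were in the library labelled replicate 1.

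**Figure D5:**
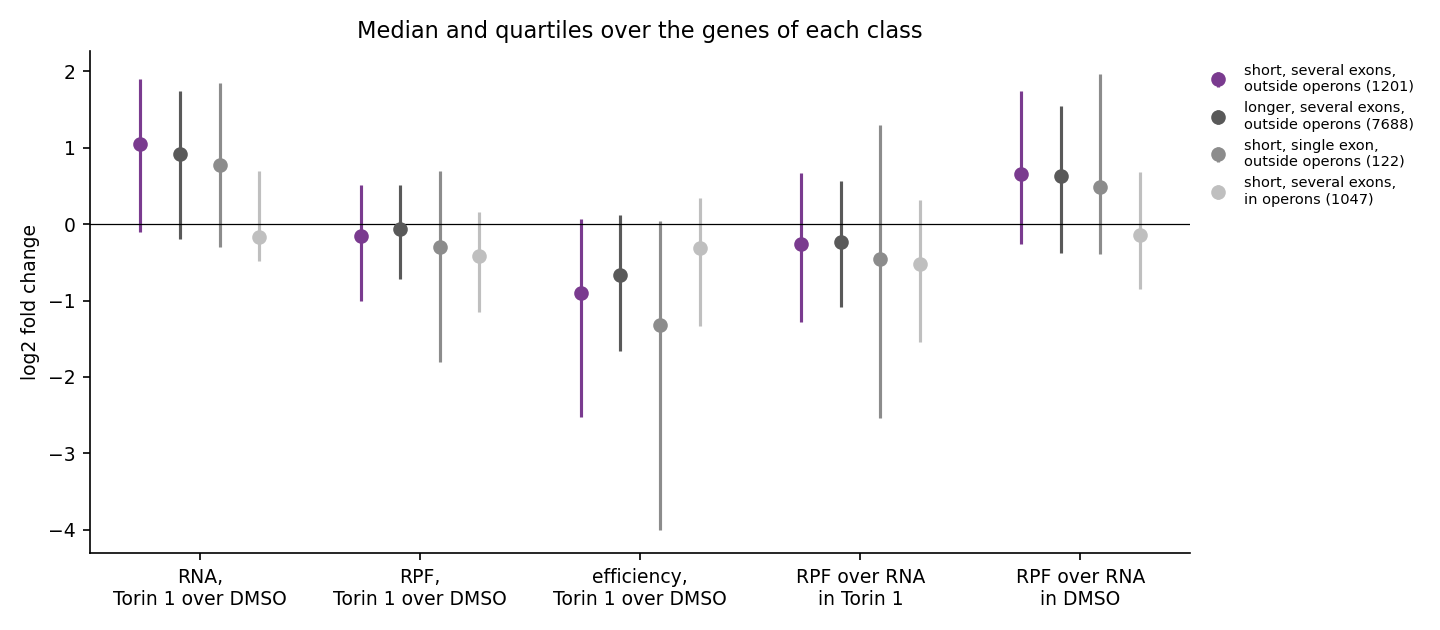
Median (point) and quartiles (line) of the fitted log2 fold changes (vertical axis) over the members (purple) and 3 classes that differ from them in 1 property (grey), for the 5 comparisons on the horizontal axis. The members lie near the longer genes outside operons, at 1.05 and 0.92 for RNA and 0.66 and 0.63 for RPF over RNA in DMSO, while short genes in operons lie at -0.17 and -0.14.

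Translational efficiency, the change of the RPF to RNA ratio between Torin 1 and DMSO, was called in no member (0% of all genes). At an unadjusted p below 0.05, 1 member was higher and 151 (12.6%) were lower, against 0.206% and 7.50% of all genes. With the replicate block 49 were lower at that p, against 2.56% of all genes. DESeq2 called 24 members lower, against 0.988% of all genes. The fitted median of members was -0.91, beside -0.46 over all genes, -0.67 in longer genes outside operons, -1.32 in short genes of 1 coding exon and -0.32 in short genes in operons. With members lacking RPF counts at their limit it was -0.69, beside -0.40 over all genes.

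Fewer members reached that p without a pair of libraries. Without the library labelled RPF DMSO replicate 1 and RNA Torin 1 replicate 3, an alternative chosen after seeing the data, an unadjusted p below 0.05 was reached by 11 members toward higher and 24 toward lower efficiency, against 1.21% and 1.69% of all genes. The median of members minus that over all genes was then -0.13, against -0.45 with every library and -0.52 where both RNA libraries of replicate 2 were left out as well. The last of these fits leaves replicate 1 as the only Torin 1 RNA library. GSOIDG00013182001 (scaffold 5, 166266 to 167675, minus strand, 2 coding exons, 366 bp) shows the form: its RPFs were 6.96, 3.43 and 10.9 RPM in Torin 1, against 409, 4.57 and 12.0 RPM in DMSO. Its RNA was 4.84, 2.39 and 265 RPM in Torin 1, against 0.843, 2.84 and 0.583 RPM in DMSO. A single DMSO library of RPFs and a single Torin 1 library of RNA stood far above the others, beside a fitted difference of -10.49 ± 2.70 on the log2 scale (adjusted p = 0.392). GSOIDG00005968001 had this form in its RPFs only, with 44.5 RPM in the library labelled RPF DMSO replicate 1, against 2.29 and 2.99 RPM in replicates 2 and 3. Its Torin 1 RNA was high in replicates 1 and 3, at 18.3 and 28.9 RPM, and 1.73 RPM in replicate 2. Toward higher efficiency, GSOIDG00015506001 (scaffold 66, 40258 to 48482, minus strand, 4 coding exons, 426 bp) had 19.5, 18.9 and 10.9 RPM of RPFs in Torin 1, against 6.47, 13.7 and 8.97 RPM in DMSO, with RNA of 9.79, 18.1 and 11.7 RPM in Torin 1, against 21.2, 15.9 and 20.4 RPM in DMSO (1.63 ± 0.81, adjusted p = 0.697).

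The members varied with their own structure in the DMSO ratio. The median log2 ratio was 0.42 in the 43 members of up to 150 bp, 0.74 in the 390 of 151 to 300 bp and 0.65 in the 768 longer ones. By exon number it was 0.64 with 2 coding exons, 0.61 with 3, 0.90 with 4 and 0.85 with 5 or more. Without the library labelled RPF DMSO replicate 1 the order of exon number was -0.01, 0.04, 0.51 and 0.63, so that members with 4 or more coding exons had the higher medians both ways. Of the 178 members with 4 coding exons, 16.9% were called higher, against 11.2% of the 563 with 2. Members with untranslated rows longer than the coding sequence (363) had a median of 0.45 and 5.51% called higher, those with shorter ones (624) had 0.77 and 15.7%, and those with none (214) had 0.77 and 13.1%. Without the library labelled RPF DMSO replicate 1 the medians of these groups were -0.30, 0.48 and -0.14. No test was made between these groups.

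Along all genes of several coding exons outside operons, the DMSO ratio did not fall off at the limit. Its median was 0.66 in the members, 0.77 at 451 to 900 bp, 0.58 at 901 to 1800 bp and 0.47 above. Just inside the limit, 171 members of 421 to 450 bp had a median of 0.49, and just outside, 194 genes of 451 to 480 bp had 0.74. At the neighbour limit, 111 members with a gap of 61 to 90 bp had a median of 0.32, and 310 short genes with a gap of 31 to 60 bp had -0.11. The RNA change differed likewise, with medians of 0.40 and -0.17.

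Of the 36 described members, 16 had their highest RNA level in Torin 1 replicate 3 and 14 in Torin 1 replicate 1. The table of descriptions was held in part and was sorted by the efficiency change of these samples, so that the named members are not a fair sample and their direction is no independent evidence. The examples below were picked after their values were seen, from those whose described protein has a known role. Cytochrome c (GSOIDG00005670001, scaffold 19, 389683 to 390191, 4 coding exons, 309 bp), the electron carrier of the respiratory chain, had 52.9, 115 and 43.7 RPM of RPFs in Torin 1, against 622, 38.9 and 44.9 RPM in DMSO. Its RNA was 48.4, 17.95 and 359 RPM in Torin 1, against 15.6, 18.8 and 2.77 RPM in DMSO. The DMSO log2 ratio of 4.57 ± 1.12 (adjusted p = 0.0311) was 1.96 without the library labelled RPF DMSO replicate 1 (adjusted p = 0.0666).

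The FAM183A-like member (GSOIDG00000368001, scaffold 1, 1271523 to 1272179, 4 coding exons) had 27.8, 46.3 and 54.6 RPM of RPFs in Torin 1, against 402, 6.86 and 35.9 RPM in DMSO. Its RNA was 6.84, 3.06 and 451 RPM in Torin 1, against 2.25, 3.31 and 0.437 RPM in DMSO. A member described as tctex1 domain-containing protein 2 (GSOIDG00000459001, scaffold 1, 1557494 to 1558504, 4 coding exons), a dynein light chain in vertebrates, had 16.7, 97.8 and 32.8 RPM of RPFs in Torin 1, against 47.5, 1.14 and 17.9 RPM in DMSO. Its RNA reached 55.6 RPM in Torin 1 replicate 3, against at most 5.90 RPM elsewhere. In both genes RNA Torin 1 replicate 3 exceeded every other RNA library by a wide margin, as it did for the summed axoneme list.

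Prefoldin subunit 6 (GSOIDG00008115001, scaffold 24, 340449 to 341134, 4 coding exons), part of a chaperone that hands unfolded actin and tubulin to the chaperonin, had 54.3, 297 and 284 RPM of RPFs in Torin 1, against 214, 19.4 and 120 RPM in DMSO. Its RNA was 10.7, 2.66 and 199 RPM in Torin 1, against 3.49, 2.76 and 0.546 RPM in DMSO, and its DMSO log2 ratio was 6.01 ± 0.95 (adjusted p = 0.00676). Every RPF level was above every RNA level but that of Torin 1 replicate 3, though RPFs ranged from 19.4 to 297 RPM. The RING-box protein (GSOIDG00004121001, scaffold 15, 183283 to 184689, 2 coding exons), a subunit of cullin ubiquitin ligases, had 5.57, 12.0 and 21.8 RPM of RPFs in Torin 1, against 49.3, 5.72 and 8.97 RPM in DMSO. Its RNA of 25.7, 8.24 and 57.8 RPM in Torin 1, against 9.16, 7.96 and 3.06 RPM in DMSO, gave no call in any comparison.

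A further pair of described members overlapped between the treatments in both assays. Oikosin 4a (GSOIDG00015848001, scaffold 7, 212661 to 213496, 2 coding exons), one of the oikosins that build the mucous house in which the animal filter-feeds, had 188, 223 and 54.6 RPM of RPFs in Torin 1, against 57.8, 270 and 323 RPM in DMSO. Its RNA was 210.0, 48.0 and 65.7 RPM in Torin 1, against 117, 50.2 and 35.9 RPM in DMSO. RPFs and RNA of oikosin 4a overlapped between the treatments, and its DMSO log2 ratio of 2.01 ± 0.68 was not called (adjusted p = 0.0945). Myosin light chain 5 (GSOIDG00002370001, scaffold 11, 768746 to 769561, 2 coding exons), a part of the myosin motor, had 6.96, 1.72 and 0 RPM of RPFs in Torin 1, against 12.0, 1.14 and 5.98 RPM in DMSO. Its RNA was 60.8, 16.5 and 9.47 RPM in Torin 1, against 22.6, 16.3 and 1.02 RPM in DMSO, with no call in any comparison.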

How the data were processed

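Per the labels, RPF and RNA libraries were made from day-6 females in 3 biological replicates per treatment. The deposited table holds raw counts per gene with no normalization. For these the submitters' processing notes name Bowtie2 2.1.0, TopHat2 2.0.13 and featureCounts, used by the authors to deplete rRNA and tRNA, to map and to count. Strand setting and treatment of reads with several positions are not given in the sources used here. All columns were mapped to samples. The other values used are scaffold positions, counted from 1, in the gene annotation the authors deposited, which gave coding exons, untranslated rows and gaps. No genome sequence was used here.

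Genes with at least 100 reads were fitted in R 4.3.3 with edgeR 4.0.16 (TMM, quasi-likelihood test, Benjamini-Hochberg over all 14574 genes, threshold 0.05): Torin 1 against DMSO in the 6 RNA and in the 6 RPF libraries, RPF against RNA within each treatment, and the interaction over all 12, which stands in for the package babel of the study. The standard error of a log2 fold change was its size over the root of F. The procedure was tested on simulated data. The p-values measure the spread between 3 libraries per group.

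Members and lists were chosen with earlier results of these data known. Named were the members on the TOP list or targeted by qPCR, the most abundant per kilobase, and per comparison and direction up to 10 called members (mean count of at least 20, same sign in the 3 same-numbered pairs) or, where fewer than 3 were called, the 5 of lowest p, with at most 2 by identifier alone unless 5 or fewer were called. Alternatives were DESeq2 1.42.0, RLE factors, no read filter, a replicate block, each library left out, libraries in doubt left out, other length and gap limits, and lengths with untranslated rows. The pairing of RPFs with RNA comes from the shared collection. The deviations of paired RPF and RNA libraries from their group means correlated at 0.18, -0.12 and 0.14 in Torin 1. In DMSO the correlations were 0.01, -0.10 and -0.09. Same-numbered Torin 1 and DMSO libraries deviated together at correlations of 0.66, -0.13 and 0.20 for RNA and -0.06, 0.01 and -0.01 for RPFs. The study took its samples in 3 collections, but no label ties the numbers of both treatments to a collection, so that block is given as an alternative only.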

Additional observations from a re-analysis of the deposited data

How the results depend on the processing

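Counts of called members depended on single libraries. Leaving out each library in turn gave 0 to 6 members higher and 0 to 29 lower for RPFs, 0 to 70 higher and 0 to 8 lower for RPF against RNA in Torin 1, and 0 to 141 higher and 0 to 49 lower for RPF against RNA in DMSO. DESeq2 called 7 members higher for RNA and 24 lower for efficiency, against 0.556% and 0.988% of all genes. For RPF against RNA in Torin 1 it called 9 higher and 3 lower, against 0.570% and 0.446% of all genes. In DMSO it called 150 higher (12.5%) and 10 lower (0.833%), against 8.21% and 4.03% of all genes. Without a filter on reads, 2 members were lower for RPFs. Shares over all genes are not given for that fit or for most fits with a library left out. Those counts therefore say nothing particular to the members. With the replicate block, which pairs RPFs and RNA, 17 members were higher and 3 lower in Torin 1, against 0.686% and 0.0412% of all genes. In DMSO 137 were higher (11.4%) and 4 lower (0.333%), against 7.16% and 2.13% of all genes. Without the 4 libraries in doubt (both RNA libraries of replicate 2, the library labelled RPF DMSO replicate 1 and RNA Torin 1 replicate 3), 98 were higher and 29 lower in Torin 1, 118 higher and 39 lower in DMSO, and 2 lower for efficiency. The fit without these 4 libraries leaves replicate 1 as the only Torin 1 RNA library. Its counts for Torin 1 and for efficiency therefore rest on a single RNA library and carry no weight. Shares over all genes are not given for that fit either, so that none of its counts is particular to the members. With same-numbered treatments as a replicate block, 0 members were called for RNA and RPFs by edgeR (at an unadjusted p below 0.05, 133 higher and 2 lower for RNA, and 15 higher and 21 lower for RPFs). The cause was not tested.

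Direction turned in few of the named members. RPL32 (GSOIDG00006994001) ranged from -1.37 to 0.67 for RNA and from -1.20 to 1.06 for efficiency with libraries left out, and its efficiency was -0.015 with DESeq2 and -0.24 with RLE factors. The efficiency of GSOIDG00004482001 ranged from -0.58 to 1.10 with libraries left out, and was 0.54 with the replicate block, 1.00 without both RNA libraries of replicate 2 and 1.99 without the 4 libraries. GSOIDG00002496001 (RPF against RNA in DMSO) ranged from -0.59 to 3.47, and was -0.57 without the 4 libraries. RPF libraries of 91549 to 874562 counts limit what can be seen of low members.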

Other observations

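A stretch of scaffold 50 from 48962 to 61997 held 10 consecutive gene models, 6 of them members (GSOIDG00013069001 to GSOIDG00013072001, GSOIDG00013075001 and GSOIDG00013076001), the other 4 with a neighbour within 60 bp. It was noticed after the values were seen. All 10 were called with more RPFs than RNA in DMSO, against 6.79% of all genes and 12.2% of members. GSOIDG00013071001 passed the read limit only through RNA Torin 1 replicate 3 and the library labelled RPF DMSO replicate 1. How many of the others did so was not counted. The DMSO call of a gene that passes in this way is largely set in advance, so that these shares are no support. The log2 ratios of the 10 ran from 6.28 to 9.42 (adjusted p from 0.00386 to 0.015). Without the library labelled RPF DMSO replicate 1, 7 of the 10 were called. None of the 6 members was called without RNA DMSO replicate 3, a fit in which no member at all was called. No model exceeded 1.35 RPM in any DMSO RNA library. The coding lengths of the 6 members were 363, 324, 324, 336, 132 and 219 bp. Summed over the 10 genes, RPFs were 143, 546 and 579 RPM in Torin 1, against 550, 38.9 and 173 RPM in DMSO. Summed RNA was 4.48, 3.06 and 432 RPM in Torin 1, against 1.24, 3.07 and 2.51 RPM in DMSO. The next model on the scaffold, GSOIDG00013077001, had a log2 ratio of 2.08 (adjusted p = 0.237). Whether the models are copies of each other was not tested.

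A pair of described members, also picked after their values were seen, had their RNA almost only in Torin 1 replicate 3. The member described as light chain 4 (GSOIDG00014037001, scaffold 619, 10938 to 11544, minus strand) had 1.39, 17.2 and 10.9 RPM of RPFs in Torin 1, against 9.79, 0 and 12.0 RPM in DMSO. Its RNA was 0.354, 0 and 13.5 RPM in Torin 1, against 0.0562, 0 and 0 RPM in DMSO. The member described as c-myc-binding protein (GSOIDG00014221001, scaffold 51, 78113 to 78657, plus strand) had 0, 49.8 and 10.9 RPM of RPFs in Torin 1, against 19.0, 2.29 and 8.97 RPM in DMSO, with RNA of 30.3 RPM in Torin 1 replicate 3 and at most 0.450 RPM elsewhere.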
